A study of Homo sapiens with 6 samples.

Results

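The 9 nuclear genes described here encode proteins that transcribe the mitochondrial genome or are grouped with those that do. The genes are POLRMT, TFAM, TFB1M, TFB2M, TEFM, MTERF1, MTERF2, MTERF3 and MTERF4. They were taken by gene symbol from a table of 16798 protein-coding genes, and each symbol matched 1 row. RNA-seq was carried out on COV434, a human cell line labelled as granulosa cells, the cells that surround the oocyte in the follicle. The 3 control samples were cells without the drug, and the 3 4HC samples had received 15 µM 4HC (4-hydroxycyclophosphamide) for 24 h. 4HC is the active metabolite of cyclophosphamide, a DNA-alkylating drug that is otherwise activated by liver enzymes. All 6 samples came from 1 cell line, no genotype differed between the groups, and the sources do not say whether the samples of a group were grown separately, so p-values here measure the spread between these samples, which may be technical.

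Mitochondrial DNA is a small circular genome whose coding genes all serve oxidative phosphorylation, and it is transcribed from both strands as long precursors. TFAM bends and packs the DNA and marks the promoters, TFB2M opens the double strand at the start site, and POLRMT, a single-subunit polymerase related to those of bacteriophages, makes the RNA. TEFM then keeps the polymerase on the template. The MTERF proteins share a fold that binds nucleic acid, and granulosa cells depend on the pathway for the mitochondria that support steroid synthesis and the growing oocyte. The 13 protein-coding genes carried by mitochondrial DNA itself had no row among the deposited genes used here, so they could not be analysed.

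Depth lay between 16133786 and 16702316 expected counts per sample, and the first principal component separated the groups, with 71% of the variance. All 8 of the p53 target genes listed as a check of the exposure rose with 4HC, among them GDF15 by 2.12, CDKN1A by 1.80 and BTG2 by 1.28 on the log2 scale. The granulosa label was not borne out by most of its markers. FSHR and CYP19A1 reached at most 1 count in a sample, and STAR, GATA4 and INHBB at most 2. FOXL2 and NR5A1 reached at most 3 and INHBA at most 15. Of 14 markers 12 had a row and 4 passed the filter on low counts. These were WT1, HSD17B1 at 199 to 251 counts per sample, AMH at 63 to 106 and INHA at 8 to 19. WT1 took most of the markers' summed level of 158.9 to 167.0 TPM in the control and 132.2 to 138.4 TPM in the 4HC group. WT1 fell by 0.35 on the log2 scale, and the part of that difference in the results below was not tested. COV434 has been reassigned by others to small cell carcinoma of the ovary, hypercalcemic type, a tumour defined by loss of SMARCA4 and SMARCA2. SMARCA2 had 0 to 4 counts per sample here and SMARCA4 345 to 461 counts (6.27 to 8.50 TPM). RNA levels do not show whether a protein is lost, so the cells are called COV434 cells throughout. Of 13 markers of germ, theca, epithelial and stromal cells 7 passed the filter, 0 of these were called by edgeR or by DESeq2 and 0 had an unadjusted p under 0.05. The 13 had a summed level of 38.9 to 41.8 TPM in the control and 40.1 to 42.3 TPM in the 4HC group. Those that passed included DCN at 710 to 838 counts per sample, ZP3 at 198.7 to 263.2 and KRT8 at 87 to 122. The others were COL1A2 at 39 to 53 counts, PTPRC at 19 to 43, GDF9 at 19 to 31 and COL1A1 at 13 to 24.

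The promoters of the 3 members that passed the test and of TFAM are shown because POLRMT, TFB2M and TFAM act together at initiation and TEFM moved the other way. Each is the 250 bases before the RefSeq start site, written 5′ to 3′ on the strand of the gene as RefSeq gives it (GRCh38.p14). The deposited table gives POLRMT and TEFM the opposite strand. In the deposited coordinates the TEFM window lies wholly inside the span of the gene, 30897336 to 30921760. Capitals mark matches on either strand to 3 motifs of factors known to act on nuclear genes for mitochondrial proteins, namely GCATGCGC for NRF1 (reverse GCGCATGC), CGGAAG for the ETS family that includes GABPA (reverse CTTCCG), and GGGCGG for SP1 (reverse CCGCCC). The last pair can share letters.
POLRMT, chr19:633538-633787, minus strand: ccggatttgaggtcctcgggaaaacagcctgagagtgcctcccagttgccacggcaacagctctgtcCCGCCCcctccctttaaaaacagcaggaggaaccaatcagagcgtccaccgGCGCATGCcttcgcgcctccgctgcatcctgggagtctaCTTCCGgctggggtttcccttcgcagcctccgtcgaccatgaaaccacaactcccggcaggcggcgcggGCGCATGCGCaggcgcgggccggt
TFB2M, chr1:246566262-246566511, minus strand: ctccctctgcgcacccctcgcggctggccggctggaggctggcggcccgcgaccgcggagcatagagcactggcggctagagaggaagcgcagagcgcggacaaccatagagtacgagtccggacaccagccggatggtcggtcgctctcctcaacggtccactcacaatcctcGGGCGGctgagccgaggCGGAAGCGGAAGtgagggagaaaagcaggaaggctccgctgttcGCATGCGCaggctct
TFAM, chr10:58385160-58385409, plus strand: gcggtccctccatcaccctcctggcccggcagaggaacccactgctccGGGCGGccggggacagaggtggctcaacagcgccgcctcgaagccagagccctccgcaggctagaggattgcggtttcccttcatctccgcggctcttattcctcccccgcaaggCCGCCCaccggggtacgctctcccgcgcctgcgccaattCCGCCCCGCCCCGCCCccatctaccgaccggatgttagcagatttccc
TEFM, chr17:30906239-30906488, minus strand: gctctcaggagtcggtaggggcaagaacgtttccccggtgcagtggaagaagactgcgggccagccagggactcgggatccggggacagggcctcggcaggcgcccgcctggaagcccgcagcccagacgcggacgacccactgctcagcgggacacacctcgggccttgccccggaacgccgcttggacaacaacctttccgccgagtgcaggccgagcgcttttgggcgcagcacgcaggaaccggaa

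An entry was found for 8 of the 9 members, and MTERF3 had none. The NRF1 letters were present before 3 of these 8 genes (POLRMT, TFB1M and TFB2M), against 5.04% of 10180 promoters of the same length. In POLRMT they formed 2 stretches, the nearer one 14 bases before the start, and in TFB2M 1 stretch ended 7 bases before it. The ETS letters were found in 5 of 8 members against 28.5% of promoters, and the SP1 letters in 6 of 8 against 68.0%. TFAM held SP1 letters only, in 3 stretches, and TEFM held none of the 3 motifs. A match describes letters in these windows and says nothing about binding. Only exact letters were sought, so the lack of a match does not mean that a site is absent.

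Of the 9 members, POLRMT and TFB2M fell with 4HC, TEFM rose, and 6 did not pass the test (edgeR quasi-likelihood test, adjusted p under 0.05 over 12368 genes tested). All 9 passed the filter on low counts. Over all genes tested, 36.4% were called, 19.2% higher and 17.1% lower, so 3 members of 9 called is close to that background. DESeq2 called 27% of genes and 2 of the members, POLRMT and TFB2M. The median log2 fold change was 0.09 over the members and 0.00475 over all genes tested. No member came near a 2-fold change, and the largest was a rise of 23.7%. Values are TMM-normalized CPM, counts scaled to a common library size and so a share of each library's RNA, and fewer cells of a kind and less RNA per cell cannot be told apart in such bulk samples.

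**Figure D1:**
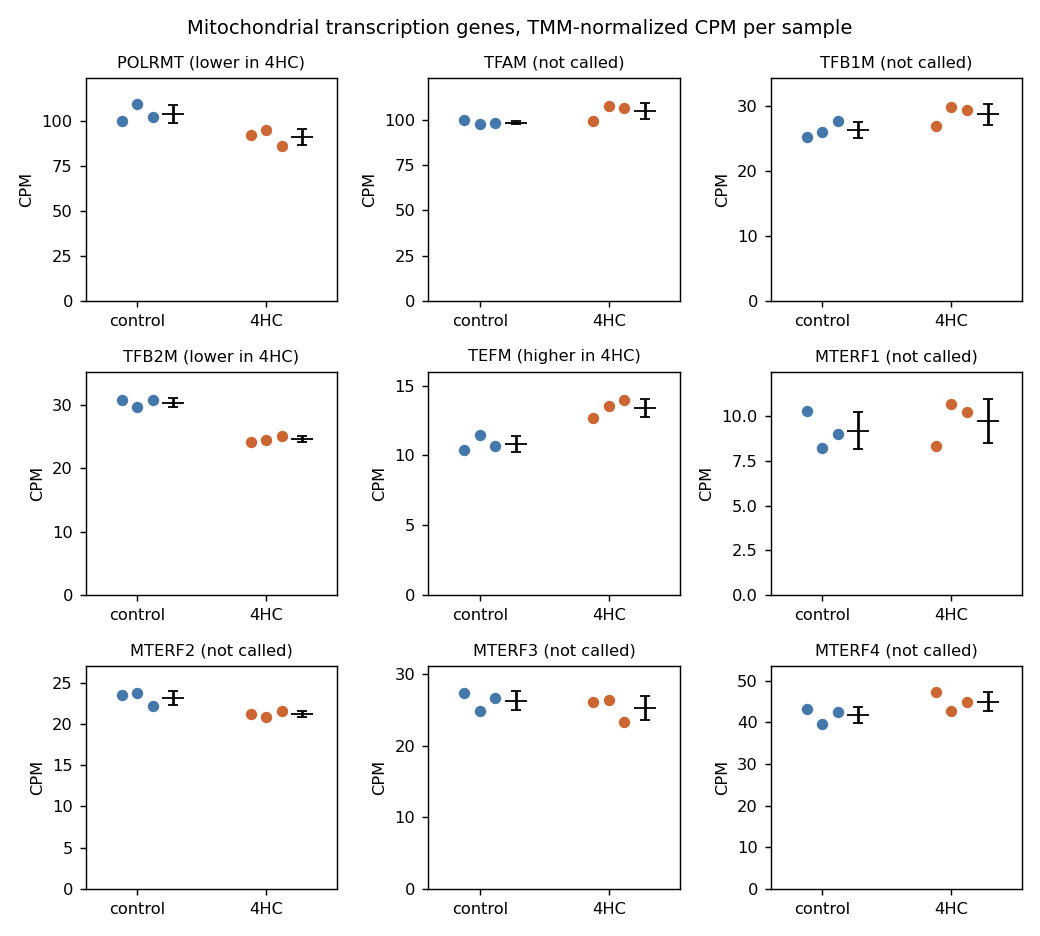
TMM-normalized CPM of the 9 genes (vertical axes, linear from 0) in the 3 control samples (blue) and the 3 4HC samples (orange), with the mean and SD beside the points. The groups are apart for POLRMT, TFB2M, TEFM and MTERF2 and overlap for the other 5 genes. Over all genes tested, the groups were apart for 45.3%, so this separation is close to the background.

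POLRMT (NCBI gene 5442, GRCh38 chromosome 19, 617221 to 633557), the RNA polymerase, had 100.03, 109.2 and 102.4 CPM in the control samples and 92.2, 94.9 and 86.1 CPM in the 4HC samples. Every 4HC sample lay below every control sample. The mean went from 103.9 ± 4.75 to 91.1 ± 4.54 CPM (SD, n = 3 each), a log2 fold change of -0.19 (SE 0.044, 95% interval -0.28 to -0.10, edgeR adjusted p = 0.000491), so that the level fell by 12.3%. The call held when any 1 sample was left out and under DESeq2.

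TFB2M (NCBI gene 64216, GRCh38 chromosome 1, 246540561 to 246566261), the factor that melts the promoter for POLRMT, had 30.8, 29.5 and 30.6 CPM in the control samples. In the 4HC samples it had 24.1, 24.4 and 25.1 CPM. The groups were well apart, and the spread within each was small, 30.3 ± 0.671 against 24.6 ± 0.490 CPM. The level fell by 19.0% (log2 fold change -0.30, SE 0.062, 95% interval -0.43 to -0.18, edgeR adjusted p = 9.18e-05).

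TFAM (NCBI gene 7019, GRCh38 chromosome 10, 58385409 to 58500694), which packs mitochondrial DNA and recruits POLRMT to the promoter, had 99.5, 97.5 and 98.1 CPM in the control and 99.5, 107.7 and 106.3 CPM with 4HC. The first 4HC sample lay within the control range and the other two above it. The log2 fold change of 0.09 (SE 0.042, 95% interval 0.0026 to 0.17) did not pass the test (edgeR adjusted p = 0.101, unadjusted p = 0.0437). It passed without 4HC replicate 1 (0.12, edgeR adjusted p = 0.0390) and with scaling by library size only (0.11, edgeR adjusted p = 0.0383).

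TEFM (NCBI gene 79736, GRCh38 chromosome 17, 30897336 to 30921760), the elongation factor, was the member that rose. It had 10.4, 11.4 and 10.7 CPM in the control samples and 12.7, 13.6 and 14.0 CPM in the 4HC samples, with no overlap. The log2 fold change was 0.31 (SE 0.093, 95% interval 0.12 to 0.49, edgeR adjusted p = 0.00695), on 168 to 228 counts per sample. These counts were whole numbers in all 6 samples. With DESeq2 the call was lost (adjusted p = 0.0519). In the deposited coordinates TEFM overlaps ATAD5, a gene of replication and DNA damage tolerance whose counts rose by 0.58 on the log2 scale (edgeR adjusted p = 1.88e-10). Whether overlapping reads play a part was not tested.

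TFB1M, a paralog of TFB2M that methylates the small mitochondrial ribosomal RNA, had 25.2, 25.9 and 27.7 CPM in the control samples and 26.9, 29.8 and 29.4 CPM in the 4HC samples. The groups overlapped. Its log2 fold change of 0.13 (SE 0.064, 95% interval -0.0033 to 0.25, edgeR adjusted p = 0.123) was positive where that of TFB2M was negative.

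The ratio of TFB2M to TFB1M within a sample, on TPM, which adjusts for transcript length, was 1.60, 1.47 and 1.34 in the control samples. It was 1.17, 1.00 and 1.10 in the 4HC samples. The log2 ratio went from 0.55 ± 0.13 to 0.12 ± 0.11 (SD, n = 3 each), a difference of -0.43 with no overlap (two-sided exact permutation p = 0.1). The ratio of POLRMT to TFAM was 0.571, 0.623 and 0.566 in the control and 0.508, 0.520 and 0.415 with 4HC. Its log2 value differed by -0.29 between the groups, also with no overlap (two-sided exact permutation p = 0.1). In 4HC replicate 3, the lowest at 0.415, POLRMT had 38.4 TPM, its lowest value, and TFAM 92.6 TPM. In 4HC replicate 2 TFAM had 80.9 TPM, though its CPM in replicates 2 and 3 were close, at 107.7 and 106.3. The part of the division of reads among TFAM transcripts was not tested. With 3 samples against 3, 0.1 is the smallest p this test allows, so neither ratio could pass 0.05.

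**Figure D2:**
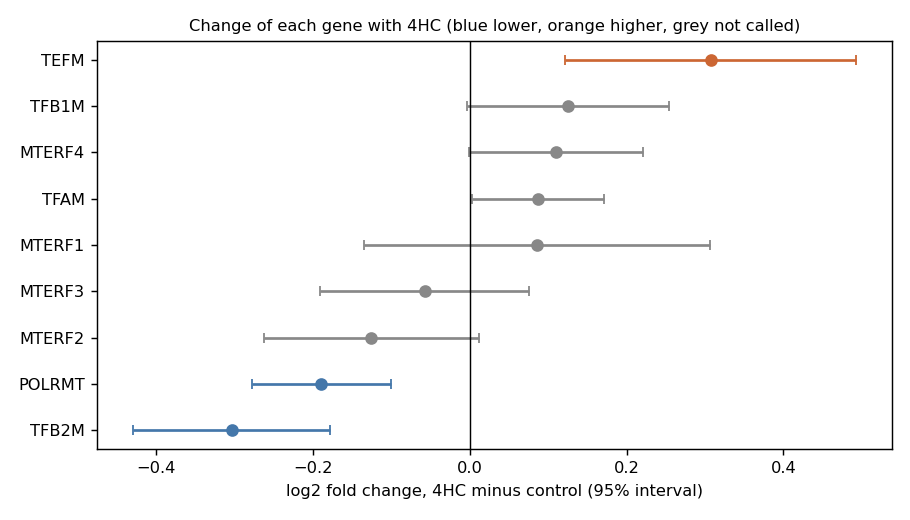
Log2 fold change of each gene, 4HC minus control (horizontal axis), with the 95% interval from the edgeR fit. POLRMT and TFB2M (blue) lie below 0 and TEFM (orange) above it, while the 6 genes in grey did not pass the adjusted threshold.

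None of the 4 MTERF genes passed the test with edgeR or DESeq2, and 0 of them had an unadjusted p under 0.05. MTERF1, described as a terminator of transcription beyond the ribosomal RNA genes, had 10.3, 8.25 and 8.99 CPM in the control and 8.33, 10.7 and 10.2 CPM with 4HC. It was the most variable member, and its log2 fold change of 0.09 had a 95% interval from -0.14 to 0.31. MTERF2, a paralog that binds mitochondrial DNA, had 23.5, 23.7 and 22.2 CPM in the control and 21.2, 20.8 and 21.6 CPM with 4HC. These groups did not overlap, as was true of 45.3% of all genes tested, yet the log2 fold change of -0.13 (SE 0.068, 95% interval -0.26 to 0.012) missed the threshold (edgeR adjusted p = 0.149).

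MTERF3, known as a repressor of mitochondrial transcription, had 27.4, 24.9 and 26.7 CPM in the control samples and 26.1, 26.4 and 23.4 CPM in the 4HC samples. The groups overlapped, with 1 4HC sample below the control range and the other two within it, and the log2 fold change was -0.06 (95% interval -0.19 to 0.075). MTERF4, which brings the methyltransferase NSUN4 to the large mitochondrial ribosomal subunit, had 43.1, 39.6 and 42.5 CPM in the control and 47.4, 42.8 and 44.9 CPM with 4HC. Its log2 fold change was 0.11 (95% interval -0.0015 to 0.22, edgeR adjusted p = 0.117), and on TPM the difference was -0.01, so the sign of this difference depended on the unit.

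Levels of different genes were compared on TPM only. In control cells TFAM was the highest member at 79.5 ± 1.95 TPM (SD, n = 3), 11.3 times MTERF1, the lowest, at 7.06 ± 0.816 TPM. Between them stood POLRMT at 46.6 TPM, MTERF3 at 35.1, TFB2M at 31.9, MTERF4 at 30.5, TFB1M at 21.8, MTERF2 at 18.7 and TEFM at 16.1 TPM. TFB2M and MTERF4 were the only neighbours in this order whose control samples overlapped. The median coding gene of the table tested had 17.3 TPM, so 7 members stood above it and TEFM and MTERF1 below.

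In the 4HC group TFAM, at 85.1 ± 6.58 TPM, and POLRMT, at 40.7 ± 1.97 TPM, again led the order. TFB2M moved below MTERF4, to 25.7 ± 0.461 TPM, where its samples overlapped those of TFB1M at 23.6 ± 1.93 TPM. TEFM moved above MTERF2, with 20.0 ± 0.800 TPM against 16.8 ± 0.690 TPM. MTERF3 overlapped MTERF4 in this group.

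**Figure D3:**
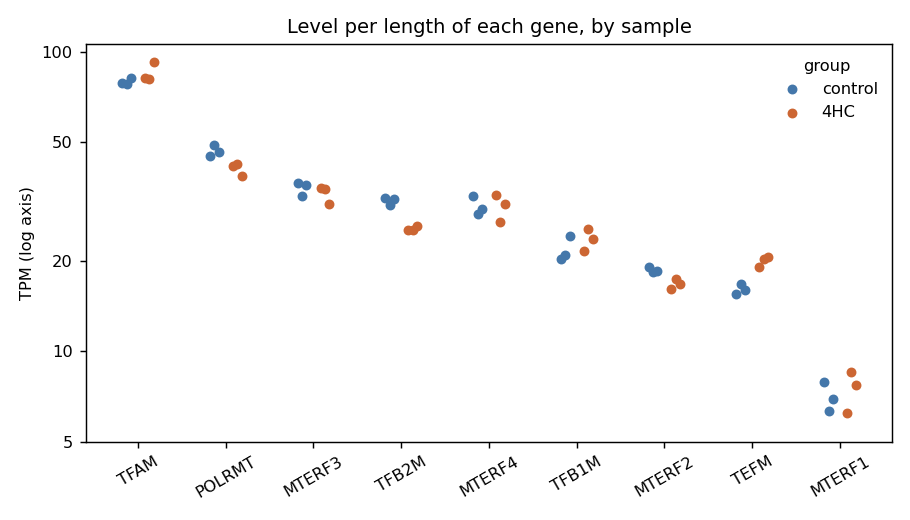
TPM of each gene (vertical axis, log scale) in the control samples (blue) and the 4HC samples (orange), genes ordered by their control mean. TFAM stands highest and MTERF1 lowest in both groups, and TFB2M falls from the level of MTERF4 to that of TFB1M.

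Expected counts were also deposited for 46 transcripts of the 9 genes, of which 33 passed the filter. In the fit over 42216 transcripts 1.29% were called, and 0 of the members' transcripts were, with 5 of 33 at an unadjusted p under 0.05 against 11% of all transcripts tested. Over all transcripts the biological coefficient of variation was 0.724, against 0.0277 for genes. The smallest adjusted p, 0.0885, belonged to NM_022366 of TFB2M, which held 97.6% of the gene's control counts. It had 481.0, 467.0 and 502.9 counts in the control samples and 393.2, 373.8 and 403.1 counts with 4HC, with no overlap, in step with the gene.

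POLRMT and TEFM were likewise carried by 1 transcript each, NM_005035 with 95.04% and NM_024683 with 94.6% of the control counts. Their log2 fold changes, -0.19 and 0.34, were close to those of the genes, with edgeR adjusted p of 0.182 and 0.312. TFAM was divided among 3 transcripts, NM_003201 with 71.7% of control counts, NM_001270782 with 15.7% and XM_011540121 with 12.6%. These shares overlapped between the groups for each of the 3. The main transcripts of TFB1M, NM_016020 with 58.7% of control counts, and of MTERF3, NM_015942 with 96.6%, had log2 fold changes of 0.17 and -0.05 and did not pass. Nor did XM_011535871, with 11.5% of the control counts of TFB1M.

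MTERF4 was spread most widely, over 12 transcripts. Its XM_017003387 had 203.3, 148.1 and 119.4 counts in the control samples and 218.1, 277.2 and 239.6 counts in the 4HC samples. The log2 fold change of 0.64 (SE 0.24) did not pass (edgeR adjusted p = 0.388), and its share of the gene, 23.0% in the control and 33.5% with 4HC, overlapped between groups. Of its other transcripts over 10%, NM_182501, with 34.1% of control counts, had 226.9, 227.9 and 242.7 counts in the control samples and 278.3, 156.0 and 264.0 counts with 4HC, and its groups overlapped, as did those of XM_024452709. NM_001330180 had 15.1%, 14.7% and 19.0% of the gene in the control samples and 14.1%, 12.3% and 11.7% in the 4HC samples, without overlap. The test was of its counts and not of these shares, and the counts overlapped and did not pass (edgeR adjusted p = 0.923). The division was unsteady for MTERF1. Its XM_005250593 had 117.0, 33.5 and 0.04 counts in the 3 control samples, within a gene total of 134 to 173 counts over all 6 samples. XM_006716126 of the same gene had 0, 44.5 and 85.3 counts in the control samples and 0, 0 and 44.6 with 4HC, while NM_006980 held 21.8% of control counts and 21.9% with 4HC. MTERF2 had 3 transcripts over 10% of its counts, NM_001033050, XM_011538767 and XM_017019985, and their shares overlapped between groups. Chosen after its values were seen, a minor MTERF2 transcript, XM_017019987, had 22.1, 15.7 and 20.7 counts in the control samples and 0 in each 4HC sample. Its control mean was 6.501 times a floor of 3 counts per library, and it did not pass the test (edgeR adjusted p = 0.115). The division was also unsteady for MTERF2. Its NM_025198 had 21.5, 18.8 and 20.6 counts in the control samples and 0, 31.9 and 32.3 with 4HC. The part of read assignment in the zeros of XM_017019987 was not tested.

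The genes that act around this machinery were listed by role, and each list is given by its counts and median. Over all genes tested edgeR called 17.1% lower and 19.2% higher, DESeq2 called 13.1% lower and 13.9% higher, and at an unadjusted p under 0.05 the edgeR shares were 21.3% and 23.2%. Of 12 regulators of nuclear genes for mitochondrial proteins 7 fell and 0 rose by edgeR and by DESeq2 (unadjusted p under 0.05, 9 lower and 1 higher), with a median log2 fold change of -0.13. The log2 fold changes of PPARGC1B and PPRC1, coactivators of the PGC-1 family, were -0.35 and -0.34 (edgeR adjusted p = 0.00232 and 4.29e-08). GABPB2, a partner subunit of GABPA, had -0.30 (edgeR adjusted p = 0.00499). NRF1 and GABPA, named for the promoter letters after their values were seen, went from 23.3 ± 0.429 to 19.5 ± 1.01 CPM and from 88.4 ± 2.03 to 80.5 ± 3.75 CPM (edgeR adjusted p = 0.00287 and 0.0145). SP1, whose letters were also marked, went from 173.4 ± 4.81 to 163.9 ± 1.85 CPM and was not called (edgeR adjusted p = 0.0788). GABPB1, another partner subunit of GABPA, was not called either (log2 fold change -0.12, edgeR adjusted p = 0.0605). The part of these factors in the members' levels was not tested.

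Among 20 genes that process or degrade mitochondrial RNA 9 fell and 0 rose (edgeR; 7 and 0 by DESeq2; 10 lower and 0 higher at an unadjusted p under 0.05), with a median of -0.11, beside the 17.1% of all genes lower and 19.2% higher by edgeR. PNPT1, the polynucleotide phosphorylase of the mitochondrial degradosome, fell from 84.99 ± 6.26 to 69.0 ± 4.22 CPM (log2 fold change -0.30, edgeR adjusted p = 2.18e-06). SLIRP, a partner of LRPPRC in keeping mitochondrial mRNAs stable, had a log2 fold change of -0.24 (edgeR adjusted p = 0.00118). That of ELAC2, which trims the 3′ ends of mitochondrial tRNAs, was -0.20 (edgeR adjusted p = 6.61e-05).

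Of 16 genes that modify mitochondrial ribosomal RNA or assemble its ribosome, 1 rose and 1 fell by edgeR, with a median of -0.05. The edgeR shares over all genes tested were 19.2% higher and 17.1% lower. MRM1 (log2 fold change -0.37) and MRM2 (0.14) are both methyltransferases of the large ribosomal RNA. The rise of MRM2 was not called with DESeq2.

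The 14 genes of the nucleoid, the protein-DNA body in which the genome is held, and of POLRMT cofactors had a median of -0.09. By edgeR 2 rose, 7 fell and 5 were not called, and by DESeq2 2 rose and 6 fell. Over all genes tested edgeR called 19.2% higher and 17.1% lower, and DESeq2 13.9% and 13.1%. MGME1, an exonuclease of mitochondrial DNA replication, rose from 76.1 ± 2.81 to 120.7 ± 4.93 CPM (log2 fold change 0.67, edgeR adjusted p = 1.99e-18), more than any member. TWNK, the replicative helicase, fell from 30.6 ± 1.19 to 22.7 ± 1.08 CPM (-0.43, edgeR adjusted p = 3.11e-07), and ATAD3B, a membrane ATPase linked to nucleoids, fell by 0.36 on the log2 scale. Library-size scaling left 2 higher and 5 lower in this list, and 7 lower among the RNA processing genes.

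**Figure D4:**
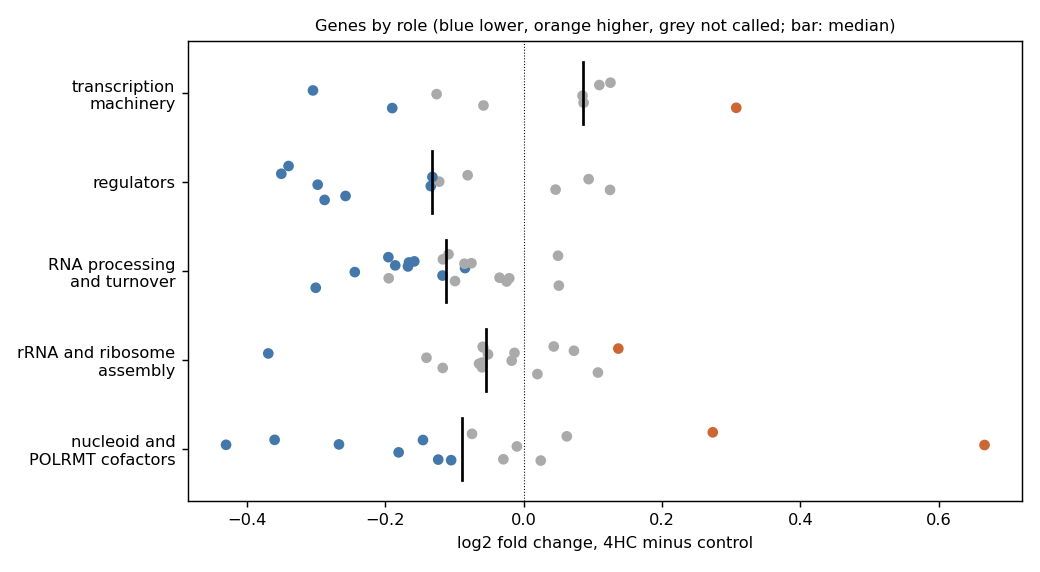
Log2 fold change, 4HC minus control (horizontal axis), of each gene tested in 5 lists by role, with genes that passed the edgeR test in blue (lower) or orange (higher) and the list median as a bar. The medians of the 4 surrounding lists lie at -0.13, -0.11, -0.05 and -0.09, and that of the transcription machinery at 0.09.

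By Pearson's r of log2 CPM over the 6 samples, the genes most like POLRMT among 10264 genes were RAI1 (0.995), MAX (0.995) and TSC22D4 (0.992). Those most like TFAM were CEP135 (0.995), TRPM7 (0.991) and SNX25 (0.990). These 6 points are 2 groups of 3 samples, r above 0.95 was reached by 106 genes for POLRMT and 46 for TFAM, and the values are a description without a test.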

How the data were processed

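RNA-seq of 6 samples, 3 control and 3 4HC, was grouped by the labels. The authors deposited expected counts, TPM and FPKM per gene and expected counts per transcript. Their processing notes name HISAT2, Bowtie2, RSEM 1.3.1, DESeq2 1.4.5 and GRCh38.p13. Whether strand was used in counting is not given in the sources used here. The deposited strand differs from RefSeq for 4 of the 8 members compared (POLRMT, TEFM, MTERF2, MTERF4) and for 30.5% of 13447 genes, so strand was taken from RefSeq. Columns of the authors' comparisons (fold changes, p-values) and a repeat gene table were not used.

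Deposited expected counts, 85.5% of them whole, were rounded and tested with edgeR 4.0.16 (TMM, filterByExpr, quasi-likelihood F-test, Benjamini-Hochberg adjustment over all genes or transcripts) in R 4.3.3. The filter left 12368 genes and 42216 transcripts. Depth of 16133786 to 16702316 counts per sample limits precision most for TEFM and MTERF1, the members with the fewest counts. Deposited TPM gave levels between genes and within-sample ratios, compared by an exact permutation test (SciPy 1.17.1), and deposited FPKM gave the same order. Motifs were searched in RefSeq promoters, where overlapping matches of 1 motif counted as 1 stretch. In deposited coordinates 4 members overlap other coding genes (TFB1M, TEFM, MTERF2, MTERF4), and TFB1M, MTERF2 and MTERF4 had fractional counts, so reads could be split.

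All members were named. In other lists the 3 called genes with the largest change were named, and transcripts with at least 10% of a member's counts. Members and lists were chosen with earlier results of these data known. Alternatives were DESeq2 1.42.0, DESeq2 size factors, library size only, no filter, at least 10 counts in every sample, limma 3.58.1 on log2 TPM with pseudocounts of 1 and 0.1, a replicate block and leaving out each sample. Scripts were tested on simulated data.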

Additional observations from a re-analysis of the deposited data

How the results depend on the processing

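Of 126 alternative values of the members' log2 fold changes, 121 kept their direction and side of the threshold. The exceptions were TEFM under DESeq2, TFAM with library size only and without 4HC replicate 1, and MTERF4, which reversed to -0.01 on TPM with either pseudocount (-0.00946 with 1 and -0.00983 with 0.1). Members called higher numbered 1, but 0 with DESeq2, 2 with library size only and 1 to 2 when 1 sample was left out. Members called lower stayed at 2 in each of these. The cause of each change was not tested. Transcripts called numbered 298 higher and 248 lower over the table. With at least 10 counts in every sample they numbered 502 and 430, and with 1 sample left out 46 to 83 and 12 to 49, with fewer samples in the fit.

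The replicate numbers shared by the groups showed no clear pairing of the samples. Correlations of same-numbered deviations were -0.064, -0.00157 and 0.133, within the range of unlike-numbered ones, -0.183 to 0.191. With 3 samples in each group these values cannot exclude a pairing. With the replicate block 2259 genes were higher and 1954 lower, against 2379 and 2118, and members stayed at 1 higher and 2 lower. With the block 0 transcripts were higher and 0 lower by edgeR, with 3761 at an unadjusted p under 0.05. Genes called by DESeq2 numbered 1717 higher and 1623 lower.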
